A study of Rattus norvegicus with 10 samples.

Results

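The peroxiredoxin and thioredoxin genes are 10 named genes, Prdx1 to Prdx6, Txn1, Txn2, Txnrd1 and Txnrd2, taken as the probe sets whose single gene symbol in the platform annotation was 1 of these. By that rule 9 of the 10 genes were measured, by 10 probe sets, among 14217 genes and 31042 probe sets on the array. Prdx1 had no probe set of its own, and the 1 probe set that the annotation gives to both Prdx1 and Prdx1l1 was assigned to neither. Of the 9 measured genes, 4 encode proteins of the mitochondrion (Prdx3, Prdx5, Txn2 and Txnrd2) and 5 encode proteins found mainly elsewhere in the cell (Prdx2, Prdx4, Prdx6, Txn1 and Txnrd1). The arrays compared hearts of male rats of the inbred Fischer-344 strain, between an Old group of 5 samples from animals aged 24 months and a Young group of 5 samples at 6 months. All animals ate standard chow and none is labelled as treated. The sample labels speak of whole hearts but the design text of ventricles, so the presence of atria is not settled. The labels do not say outright that each sample came from a separate rat, so a p-value here reflects only the spread of these samples, which may be technical.

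Peroxiredoxins are thiol enzymes that reduce hydrogen peroxide with a reactive cysteine, which is oxidized in the reaction. Thioredoxin restores most of them to the reduced state, and thioredoxin reductase, a selenoprotein, recharges thioredoxin with electrons from NADPH. Mitochondria keep their own set, with Prdx3 and Prdx5 as peroxidases, Txn2 as the thioredoxin and Txnrd2 as the reductase, and in the heart, where mitochondria are abundant and release peroxide during respiration, this set is a main route of peroxide removal. Prdx5 is also found in peroxisomes and the cytosol.

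In Old hearts 3 of the 4 mitochondrial genes fell, Prdx5, Txn2 and Txnrd2, while the mitochondrial peroxiredoxin gene Prdx3 did not pass the test. Prdx5 fell by 25.6%, Txn2 fell by 22.7% and Txnrd2 fell by 14.3%. Of the 5 other genes, Prdx4, the peroxiredoxin of the endoplasmic reticulum, rose by 31.6%, and Prdx2, Prdx6, Txn1 and Txnrd1 did not pass. So 1 of 9 genes rose and 3 fell, where 11.9% of all genes passed, 6.77% as risen and 5.09% as fallen. The same genes were called by their probe sets, of which 1 of 10 rose and 3 fell, against 8.03% of all probe sets called, 4.42% as risen and 3.60% as fallen. A gene is called risen or fallen where limma, fitted over all 14217 genes, gave a Benjamini-Hochberg adjusted p under 0.05 (n = 5 per age). All values are taken as log2 values, though the base is not stated, and the median of the 10 arrays was taken off for each probe set. A value thus tells how an array stands relative to the others and not how abundant a transcript is. In bulk hearts, fewer cells of a type and less RNA per cell cannot be told apart.

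The promoters of the 4 members that passed the test are shown because they are the sequences next to the transcripts that differed with age. Each runs from 250 bases before to 50 bases after a RefSeq start site of assembly GRCr8, on the strand of the gene. For Prdx5 and Prdx4 the window lies inside the span of the gene (chr1:213529042-213532787 and chrX:43876374-43893815). For Txn2 and Txnrd2 the start site is that of the whole gene. Capitals mark the core of the antioxidant response element, the motif bound by the transcription factor Nrf2. The core searched was TGACNNNGC on both strands, and in both marked windows it lies on the strand opposite to the gene.
Prdx5, chr1:213531978-213532277, minus strand: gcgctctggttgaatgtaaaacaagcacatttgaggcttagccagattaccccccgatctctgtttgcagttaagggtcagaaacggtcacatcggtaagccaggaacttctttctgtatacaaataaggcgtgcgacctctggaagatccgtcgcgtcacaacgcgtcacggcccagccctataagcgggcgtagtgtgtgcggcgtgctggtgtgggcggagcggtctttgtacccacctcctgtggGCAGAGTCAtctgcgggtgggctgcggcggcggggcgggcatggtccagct
Txn2, chr7:111390891-111391190, minus strand: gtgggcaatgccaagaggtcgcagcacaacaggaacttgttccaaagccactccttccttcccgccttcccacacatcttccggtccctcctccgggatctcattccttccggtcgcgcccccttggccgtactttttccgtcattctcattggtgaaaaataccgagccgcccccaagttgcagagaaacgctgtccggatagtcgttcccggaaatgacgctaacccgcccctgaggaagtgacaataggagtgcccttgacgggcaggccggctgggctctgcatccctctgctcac
Txnrd2, chr11:96072426-96072725, minus strand: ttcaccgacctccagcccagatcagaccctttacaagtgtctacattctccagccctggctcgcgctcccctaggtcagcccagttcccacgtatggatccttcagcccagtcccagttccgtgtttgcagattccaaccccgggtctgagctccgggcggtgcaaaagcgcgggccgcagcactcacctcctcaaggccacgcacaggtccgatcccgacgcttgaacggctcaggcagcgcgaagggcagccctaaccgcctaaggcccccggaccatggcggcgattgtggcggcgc
Prdx4, chrX:43878483-43878782, plus strand: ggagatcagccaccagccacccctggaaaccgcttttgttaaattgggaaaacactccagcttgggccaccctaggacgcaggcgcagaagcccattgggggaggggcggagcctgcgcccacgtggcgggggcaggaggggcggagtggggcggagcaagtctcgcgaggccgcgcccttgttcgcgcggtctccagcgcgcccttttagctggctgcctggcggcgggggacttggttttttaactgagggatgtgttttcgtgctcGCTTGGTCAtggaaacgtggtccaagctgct
The capitals begin 1 base before the start site in Prdx5 and 19 bases after it in Prdx4. It was not in the windows of Txn2 and Txnrd2.

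Windows were found for 9 of the 10 named genes, all but Prdx6. Of these 9 genes, which include Prdx1, 4 held the antioxidant core in at least 1 window. Of all 33469 windows 12.1% held it, a share of windows and not of genes. GC content was not matched: the members' windows held 58.3% to 70% GC, except 1 of Txnrd1 (43.7%), where the median of all windows was 51.7%. Besides Prdx4 and Prdx5 these were Prdx1 and 1 of the 2 windows of Txnrd1, both printed below with 10 bases on either side of the core in capitals.
Prdx1, chr5:135383761-135383789, plus strand: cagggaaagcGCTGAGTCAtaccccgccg
Txnrd1, chr7:22755964-22755992, minus strand: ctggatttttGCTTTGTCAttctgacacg
The genes with the core thus include Prdx5, which fell, Prdx4, which rose, and Txnrd1, which did not pass. The half-site of the estrogen-related receptors, AAGGTCA, and the palindromic core of the motif of nuclear respiratory factor 1 were searched on both strands as motifs of factors that act on mitochondrial genes. Neither was in a window of these 9 genes, and they were in 4.61% and 4.25% of all windows. A match of letters describes the sequence alone.

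Among the mitochondrial members, Prdx5 encodes a peroxiredoxin that reduces hydrogen peroxide, organic peroxides and peroxynitrite. Its probe set, 1367677_at, read -0.12, -0.41, -0.12, -0.22 and -0.19 in Old replicates 2, 3, 4, 5 and 6, against 0.30, 0.19, 0.24, 0.22 and 0.12 in Young replicates 1, 2, 3, 4 and 6. Every Old array lay below every Young array, and Old replicate 3 was the lowest. The difference was -0.43 ± 0.06 (SE, limma adjusted p = 0.00210, n = 5 per age), a 1.34-fold lower signal in Old hearts.

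Txn2 encodes the mitochondrial thioredoxin, which hands electrons to Prdx3 and Prdx5. Its probe set, 1398844_at, read -0.16, -0.19, -0.22, -0.13 and -0.20 in Old replicates 2 to 6, against 0.28, 0.22, 0.13, 0.18 and 0.15 in Young replicates 1, 2, 3, 4 and 6. The ages did not overlap, and the Old arrays lay within 0.085 of each other, the narrowest Old range of the 9 genes. Txn2 fell by 0.37 ± 0.04 (SE) on the log2 scale, with a limma adjusted p of 0.00107, and it stood at rank 26 of all 14217 genes by p.

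Txnrd2 encodes the reductase that recharges Txn2. By probe set 1368309_at it read -0.037, -0.26, -0.0096, -0.023 and -0.19 in Old replicates 2 to 6, against 0.14, 0.13, 0.14, 0.0096 and 0.18 in Young replicates 1, 2, 3, 4 and 6. The ages did not overlap, but Old replicate 4 and Young replicate 4 came within 0.02 of each other. The difference was -0.22 ± 0.06 (SE, limma adjusted p = 0.0303). That call was lost without Old replicate 6 (0.0767) or without Young replicate 1 (0.0572), 2 (0.0662), 3 (0.0721) or 6 (0.0667). The difference in these settings was -0.22 to -0.20. By its probe set the call was also lost without Old replicate 3 (0.0731) or 5 (0.0607). Without Old replicates 3 and 6 together, the difference of Txnrd2 was -0.14 (0.148). The granzyme gene Gzma read 3.38 in Old replicate 3 and 1.2012 in Old replicate 6. Old replicate 2, which was kept, read nearly the same as Old replicate 6 (1.1922). Gzma thus set only Old replicate 3 apart from the other Old arrays and gives no reason to leave out Old replicate 6. Leaving out both was a setting chosen with earlier results known.

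Prdx3 encodes the peroxiredoxin that resides in mitochondria. By probe set 1367591_at it read 0.15, -0.36, 0.14, -0.0049 and -0.22 in Old replicates 2 to 6, against 0.058, -0.26, 0.0049, 0.11 and -0.15 in Young replicates 1, 2, 3, 4 and 6. The ages overlapped over nearly their whole range, and the Old arrays spread over 0.51, the widest range of the 9 genes in either age. The difference was -0.011 ± 0.11 (SE, limma adjusted p = 0.962). Without Old replicates 3 and 6 together it was 0.14 (adjusted p = 0.377).

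The ages did not overlap in 3 of the 9 members, Prdx5, Txn2 and Txnrd2, all lower in Old. Of all genes 9.91% had ages that did not overlap, 4.78% with Old lower and 5.13% with Old higher.

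**Figure D1:**
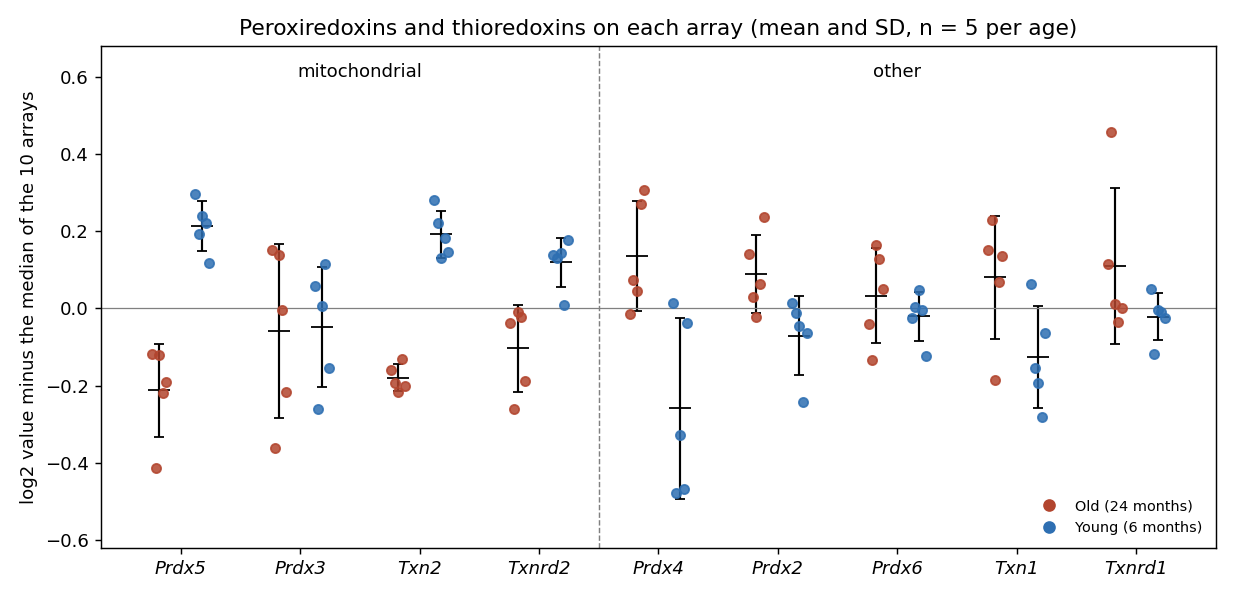
Each point is 1 array, as the log2 value minus the median of the 10 arrays on the vertical axis, for the 4 mitochondrial members (left of the dashed line) and the 5 other members, with Old arrays left of Young arrays for each gene. Black marks give the mean and SD of 5 arrays. Prdx5, Txn2 and Txnrd2 show Old arrays below all Young arrays, and in Txnrd1 Old replicate 3 lies apart at 0.46.

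Outside the mitochondrion, Prdx4 encodes the peroxiredoxin that works in the endoplasmic reticulum, where its oxidized form passes disulfide bonds to folding enzymes. Its probe set, 1387891_at, read -0.013, 0.073, 0.045, 0.27 and 0.31 in Old replicates 2 to 6, against 0.013, -0.48, -0.33, -0.47 and -0.037 in Young replicates 1, 2, 3, 4 and 6. The ages overlapped by a single pair, Old replicate 2 below Young replicate 1, and Young replicates 2, 3 and 4 were far lower than the other Young arrays. The difference was 0.40 ± 0.11 (SE, limma adjusted p = 0.0298), a 1.32-fold higher signal in Old hearts. The call was lost without Old replicate 5 (0.0787) or 6 (0.0741), without Young replicate 2 (0.0763), 3 (0.0742) or 4 (0.0677), and without Old replicates 3 and 6 together (0.104).

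Txn1 encodes the cytosolic thioredoxin. By probe set 1398839_at it read 0.15, 0.23, -0.18, 0.069 and 0.14 in Old replicates 2 to 6, against 0.064, -0.15, -0.19, -0.28 and -0.064 in Young replicates 1, 2, 3, 4 and 6. All Old arrays but replicate 4 lay above all Young arrays. The difference of 0.21 ± 0.08 (SE) did not pass (limma adjusted p = 0.132), and it was 0.27 without Old replicate 4 (0.0324).

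Prdx2, a cytosolic peroxiredoxin that is very abundant in red blood cells, was measured by probe set 1367578_at. It read 0.14, 0.030, -0.023, 0.062 and 0.24 in Old replicates 2 to 6, against 0.013, -0.013, -0.045, -0.24 and -0.063 in Young replicates 1, 2, 3, 4 and 6. Old replicate 4 alone of the Old arrays fell inside the Young range. The difference was 0.16 ± 0.06 (SE, limma adjusted p = 0.127). The score of 4 red cell markers, the mean of their values on an array, ran from -0.39 to 0.95 in Old arrays and from -0.26 to 0.32 in Young arrays, with its highest value in Old replicate 6, where Prdx2 was also highest. Without that array the Prdx2 difference was 0.12 (0.276). The lowest score was that of Old replicate 5, where Prdx2 read 0.062. Young replicate 4 had the lowest Young score and the lowest Prdx2, and without it the difference was also 0.12 (0.237). The part of red cells in this difference was not tested.

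Prdx6, the peroxiredoxin with a single catalytic cysteine, which uses glutathione in place of thioredoxin, was measured by probe set 1367969_at and ranged from -0.13 to 0.16 in Old arrays and from -0.12 to 0.047 in Young arrays. The Young range lay inside the Old one, and the difference was 0.054 ± 0.06 (SE, limma adjusted p = 0.639). It was 0.096 without Old replicate 3, and 0.021 without Old replicate 4, 0.030 without Old replicate 5 and 0.028 without Young replicate 6. Txnrd1, the cytosolic reductase, was measured by 2 probe sets. The first, 1386958_at, read 0.044, 0.48, 0.060, -0.020 and 0.0085 in Old replicates 2 to 6, against 0.27, -0.25, -0.063, -0.17 and -0.0085 in Young replicates 1, 2, 3, 4 and 6. The second, 1398791_at, read 0.19, 0.44, -0.039, -0.051 and -0.0092 in the same Old arrays, against -0.17, 0.0092, 0.054, 0.15 and -0.043 in the Young ones. Old replicate 3 was the highest array by both probe sets, whereas Young replicate 1 was the highest Young array by the first and the lowest by the second. Their differences were 0.16 ± 0.11 and 0.10 ± 0.09 (SE), and the gene's was 0.13 ± 0.08 (SE, limma adjusted p = 0.368). Without Old replicate 3 the gene's difference was 0.044 (0.626). The other 8 genes had 1 probe set each.

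**Figure D2:**
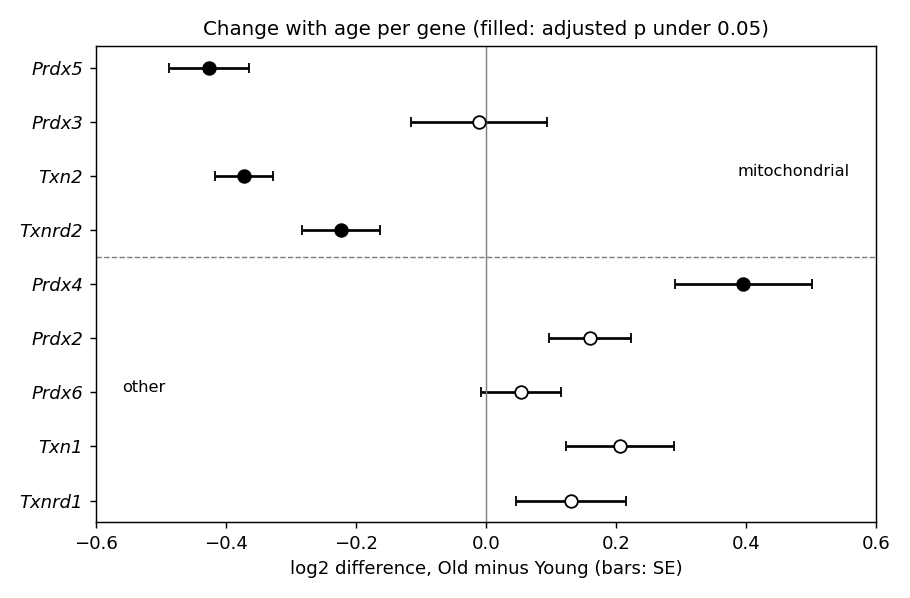
The log2 difference, Old minus Young, on the horizontal axis with its SE as bars, for the 4 mitochondrial members (top) and the 5 other members. Filled points passed the limma test over all genes. The 4 mitochondrial members lie at -0.43 to -0.011, and the 5 other members lie at 0.054 to 0.40.

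All 4 mitochondrial genes had a lower mean in Old hearts and all 5 others a higher one, although the sign of Prdx3 changed with quantile normalization and other settings. Over all genes 51.8% had a lower mean in Old hearts and 48.2% a higher one. The median difference was -0.30 for the mitochondrial members and 0.16 for the others, beside -0.0050 over all genes. On single arrays, the mean of the mitochondrial members read -0.041, -0.31, -0.052, -0.094 and -0.20 in Old replicates 2 to 6, against 0.19, 0.071, 0.13, 0.13 and 0.072 in Young replicates 1, 2, 3, 4 and 6. The mean of the other members read 0.071, 0.13, 0.0023, 0.099 and 0.15 in the same Old arrays, against 0.023, -0.15, -0.10, -0.20 and -0.063 in the Young ones. On every Old array the mitochondrial mean was below that of the other members, and on every Young array it was above. The members were chosen with results known, so these means carry no test.

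Related members were also set against each other on the same array, as the log2 value of one minus that of the other, which removes what shifts both alike. For the mitochondrial against the cytosolic thioredoxin, Txn2 minus Txn1, the value averaged -0.26 ± 0.15 in Old hearts and 0.32 ± 0.11 in Young hearts (SD, n = 5 each). For the reductases, Txnrd2 minus Txnrd1, it averaged -0.21 ± 0.29 in Old hearts and 0.14 ± 0.09 in Young hearts. For the mitochondrial peroxiredoxins, Prdx5 minus Prdx3, it averaged -0.15 ± 0.13 in Old hearts and 0.26 ± 0.12 in Young hearts. In each of the 3 pairs every Old array lay below every Young array, in the reductases by a narrow margin, with 0.013 on Old replicate 5 and 0.018 on Young replicate 4. The differences between the ages were -0.58, -0.35 and -0.42. The pairs were chosen after the values were seen, a member that fell against one that did not pass, so they are a description and carry no test. The first member of each pair already separated the ages by itself, so the separation of the pairs in part restates that. No share over other pairs of genes was computed. The difference of the reductases was -0.23 without Old replicate 3 and -0.19 without Old replicates 3 and 6, while those of Txn2 against Txn1 and of Prdx5 against Prdx3 were -0.50 and -0.51 without these 2 arrays.

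**Figure D3:**
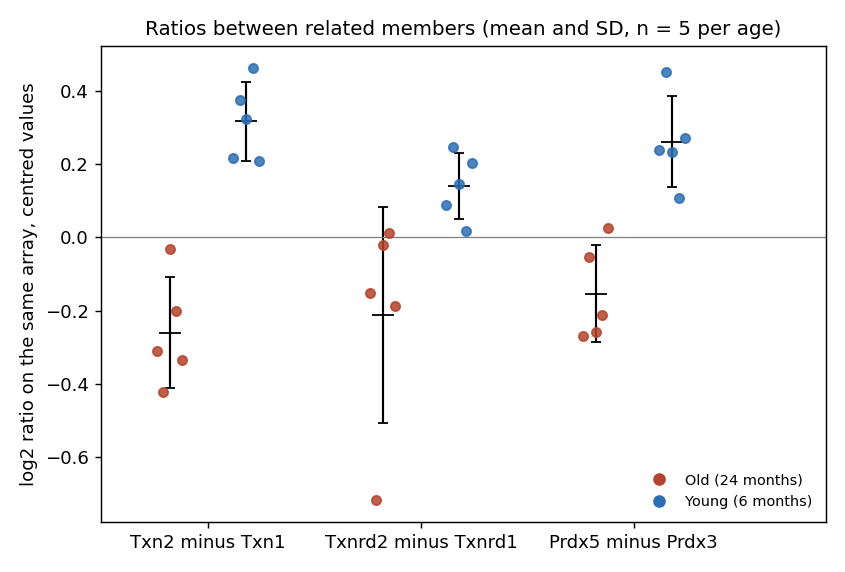
The log2 ratio of 2 members on the same array, on the vertical axis, for Txn2 against Txn1, Txnrd2 against Txnrd1 and Prdx5 against Prdx3, with Old arrays left of Young arrays and black marks for the mean and SD of 5 arrays. In each pair all Old arrays lie below all Young arrays, as they do for the first member of the pair alone. The margin is smallest in the reductases, where the highest Old array is at 0.013 and the lowest Young array at 0.018.

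The fall of Prdx5, Txn2 and Txnrd2 stood beside lower values of other mitochondrial enzymes. Of 10 measured enzymes of the tricarboxylic acid cycle in the matrix, 7 fell and none rose, where 5.09% of all genes fell, with a median difference of -0.26, close to the -0.30 of the mitochondrial members. Suclg1 (-0.43), Idh3a (-0.30) and the citrate synthase gene Cs (-0.28) had the smallest p among them. Their mean on an array ran from -0.39 to -0.031 in Old arrays and from 0.032 to 0.16 in Young arrays, with its lowest value in Old replicate 3, where Prdx3, Prdx5 and Txnrd2 were also lowest. The share of the change in Prdx5, Txn2 and Txnrd2 that goes with mitochondrial genes as a whole was not tested.

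NADPH, the source of the electrons, is made separately inside and outside mitochondria. Of 7 genes that supply it in mitochondria, all had lower means in Old hearts and 1 fell, the malic enzyme gene Me3 (-0.38 ± 0.08 SE, limma adjusted p = 0.00803). The transhydrogenase gene Nnt, whose product makes NADPH at the inner membrane and which was named after its value was seen, gave -0.12 ± 0.06 (SE, limma adjusted p = 0.258). Of 6 measured cytosolic suppliers, 2 rose, the isocitrate dehydrogenase gene Idh1 (0.22 ± 0.05 SE, limma adjusted p = 0.0108) and the pentose phosphate gene Pgd (0.18 ± 0.05 SE, limma adjusted p = 0.0296). The median differences were -0.12 and 0.057. Over all genes 51.8% had a lower mean, 6.77% rose and 5.09% fell. Idh1 had 2 probe sets, at 0.095 and 0.35. The call of Pgd was lost without Old replicate 3, 5 or 6 or Young replicate 1, 2, 3 or 4 (0.0513 to 0.0756), and its difference was 0.072 (0.311) when a probe set shared with another gene was added.

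In 3 further lists, of repair genes, family relatives and enzymes that use thioredoxin, no gene passed the limma test. By that test 11.9% of all genes passed, and 3738 of 14217 had an unadjusted p under 0.05. Of 4 genes for repair of over-oxidized peroxiredoxins and for sestrins, 0 passed and 2 had an unadjusted p under 0.05. The sulfiredoxin gene Srxn1 gave 0.15 (limma adjusted p = 0.187) and Sesn2 gave 0.14 (0.0746). The 3 probe sets of Srxn1 ranged from -0.11 to 0.57, and its difference was 0.088 without Old replicate 3 and 0.028 as the median of the probe sets. Of 12 other thioredoxin and glutaredoxin genes, 0 passed by limma and 2 had an unadjusted p under 0.05, with a median difference of 0.0012. The smallest p were those of Txndc17 (0.19, adjusted p = 0.0890) and the reductase gene Txnrd3 (-0.13, 0.141). The gene of the thioredoxin inhibitor Txnip, named after its value was seen, gave 0.049 ± 0.16 (SE, adjusted p = 0.889). Among 6 measured enzymes that draw on thioredoxin, 0 passed by limma and 2 had an unadjusted p under 0.05, with Msrb3 at -0.24 (0.0547) and Apex1 at -0.16 (0.0625). Txndc17 passed without Young replicate 1 (0.0443), Txnrd3 without Old replicate 4 (0.0442), and Msrb3 without Old replicate 4 (0.0335) or 6 (0.0489).

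Both reductases carry selenocysteine. Of 6 genes of selenoprotein synthesis, 5 had lower means in Old hearts and 1 fell, Trnau1ap (-0.30 ± 0.06 SE, limma adjusted p = 0.00863), which encodes a protein that binds the selenocysteine tRNA. Of all genes 51.8% had a lower mean and 5.09% fell. The median was -0.096.

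In the endoplasmic reticulum, where Prdx4 works, 3 of 13 genes of oxidative folding rose and 1 fell, beside 6.77% and 5.09% of all genes, with a median of 0.045. Gpx8, a peroxidase of the same compartment, rose by 0.60 ± 0.11 (SE, limma adjusted p = 0.00613), and its Old values of 0.078 to 0.55 lay above the Young values of -0.52 to -0.078. The thioredoxin-like genes Txndc12 (0.29) and Tmx1 (0.32) also rose, and the disulfide isomerase gene Pdia3 fell (-0.21, with probe sets at -0.34 and -0.072). The calls of Tmx1 and Pdia3 were each lost without any 1 of several arrays, Tmx1 without Old replicate 4, 5 or 6 or Young replicate 2, 3, 4 or 6 (0.0520 to 0.0754), and Pdia3 without Old replicate 4 or 5 or Young replicate 1, 2 or 3 (0.0658 to 0.0774).

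Nrf2, encoded by Nfe2l2, is the factor that switches on Txnrd1, Prdx1 and Srxn1 under oxidative stress. Of 14 measured genes of Nrf2 regulation and its targets, 3 rose and none fell, beside 6.77% and 5.09% of all genes. Nfe2l2 rose by 0.33 ± 0.06 (SE, limma adjusted p = 0.00475), its partner gene Maff by 0.58 ± 0.08 (SE, 0.00177) and the heme oxygenase gene Hmox1 by 0.85 ± 0.21 (SE, 0.0231). Nfe2l2 read 0.081 to 0.13 in Old arrays and -0.37 to -0.081 in Young arrays. Other classical targets did not pass, with Nqo1 at 0.053 (0.683) and Gclc at 0.044 (0.558), both named after their values were seen, and the median of the 14 was 0.049. The call of Hmox1 was lost without Old replicate 6 (0.0505) or Young replicate 2 (0.0617) or 4 (0.0528). Of 7 other enzymes that remove superoxide or peroxide, 2 rose (6.77% of all genes), the extracellular peroxidase gene Gpx3 (0.81 ± 0.11 SE, limma adjusted p = 0.00177) and the glutathione peroxidase gene Gpx1 (0.30 ± 0.07 SE, limma adjusted p = 0.0202), and the mitochondrial dismutase gene Sod2, named after its value was seen, gave -0.12 (0.403). The call of Gpx1 was lost without Old replicate 6, where the adjusted p was just above the threshold.

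**Figure D4:**
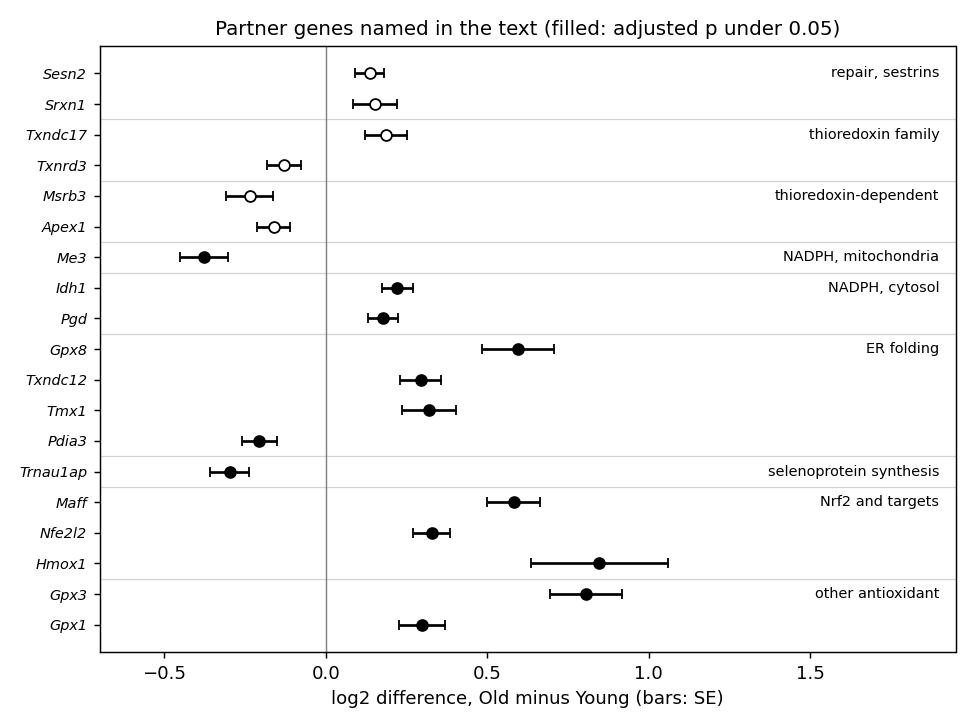
The log2 difference, Old minus Young, on the horizontal axis with its SE as bars, for the partner genes chosen by a rule on p within each list, grouped by list from top to bottom. Filled points passed the limma test over all genes. Me3, Pdia3 and Trnau1ap fell, and the cytosolic NADPH, Nrf2 and other antioxidant genes shown lie between 0.18 and 0.85.

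Markers of cell types were read on the same arrays, where 6.77% of all genes rose and 5.09% fell. All 7 measured cardiomyocyte markers had probe sets in the brightest of 3 signal classes that the smallest increments of the values gave. Of them 2 fell, Myh6 (-1.24, with probe sets at -2.02 and -0.46) and Ryr2 (-0.55). The others, from Tnnt2 at -0.085 to Myl3 at -0.13, did not pass, and the median of the list was -0.12. The cardiomyocyte scores, which include Myh6 and Ryr2, ran from -0.33 to -0.023 in Old arrays and from 0.068 to 0.22 in Young arrays. Of 8 macrophage markers 4 rose, with scores of 0.029 to 1.04 in Old arrays and -0.51 to -0.019 in Young arrays. Of 7 fibroblast markers 3 rose, with scores of -0.11 to 0.41 in Old arrays and -0.24 to 0.054 in Young arrays. Of 4 atrial myocyte markers 2 rose, Nppa (2.69) and Myl7 (1.45). The other atrial markers, Myl4 (0.26, limma adjusted p = 0.151) and Sln (0.16, 0.507), did not pass. The atrial scores, which include Nppa and Myl7, ran from 0.16 to 0.83 in Old arrays and from -1.05 to -0.29 in Young arrays. Of 7 lymphocyte markers 1 rose, Gzma (1.98), while 4 of the others had lower means in Old hearts and the median of the list was -0.10. The lymphocyte scores, which include Gzma, ran from 0.055 to 0.41 in Old arrays and from -0.21 to -0.00080 in Young arrays. Of 5 endothelial markers 1 rose, with scores of -0.042 to 0.37 in Old arrays and -0.12 to 0.032 in Young arrays. By limma 0 of 4 plasma cell, 0 of 6 smooth muscle and pericyte, 0 of 4 erythroid and 0 of 5 adipocyte markers passed. Of them 1, 0, 0 and 1 had an unadjusted p under 0.05, beside 3738 of all 14217 genes. The plasma cell scores ran from -0.037 to 0.11 in Old arrays and from -0.063 to 0.061 in Young arrays, the smooth muscle scores from -0.13 to 0.11 in Old and from -0.17 to 0.16 in Young, and the adipocyte scores from -0.027 to 0.14 in Old and from -0.12 to 1.22 in Young. The 1.22 is that of Young replicate 2, which stood apart from the other Young arrays at up to 0.046 and which had the lowest Prdx4 and Txnrd1 of the 10 arrays. Without it the Prdx4 difference was 0.34 (limma adjusted p = 0.0763). Young replicate 4 had the lowest adipocyte score of the 10 arrays (-0.12) and nearly as low a Prdx4 (-0.47). Without Young replicate 4 the Prdx4 difference was also 0.34 (0.0677). On Old replicates 5 and 6, which had the highest macrophage scores, Prdx4 was also highest. The part of these cell types in the results was not tested. Levels at 0 could not be read from centred values, and no marker was in the dimmest class by all its probe sets.

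For each member that passed, the 3 genes most like it across the 10 arrays were found among 13079 genes, after the mean of each age had been taken off. They are the highest of many correlations over few arrays that share their libraries, and are given as a description. Prdx5 was most like Nmnat1 (r = 0.956), Cyp20a1 (0.956) and the mitochondrial superoxide dismutase gene Sod2 (0.955). Txn2 was most like Lamtor4 (0.937), Medag (0.927) and Fbxl12 (0.912). Txnrd2 was most like LOC100909739 (0.947), Gca (0.929) and the cytosolic malic enzyme gene Me1 (0.925). Prdx4 was most like the calcium-binding genes S100a6 (0.952) and Sri (0.949), and Vcf2 (0.943). S100a6 (0.74) and Sri (0.39) also rose with age, as did Fbxl12 (0.23), and the other 9 did not pass.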

How the data were processed

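Total RNA of 10 rat heart samples was amplified over 2 cycles, labelled with biotin and hybridised to Affymetrix Rat Genome 230 2.0 arrays, per the labels' protocols. The authors' deposited table holds log2 values, 1 per probe set and array, with a median of 0 over the 10 arrays for every probe set (tolerance 1e-06). The smallest increments of the values point to base 2, and the sources used here give no software, background correction or normalization. These increments (tolerance 0.15 of an increment) also gave 3 approximate signal classes. The number of arrays limits the precision. Array medians lay between -0.0097 and 0.0038 in Old and between -0.0061 and 0.0093 in Young arrays, and the highest correlation between 2 arrays was 0.570.

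Names come from the platform annotation, with symbols updated by gene identifier through RefSeq (GRCr8), which matched 20758 of 20826 probe sets with 1 symbol. A further 436 had several symbols and 9780 had none listed, and neither kind was named. A gene's value is the mean of its probe sets. Old and Young were compared with limma 3.58.1 (lmFit, eBayes, R 4.3.3) with no covariate, over all genes and over all probe sets, and the script was tested on simulated data. The remaining steps ran in Python 3.11.15 (pandas 2.3.3, numpy 2.4.6), and figures were drawn with matplotlib 3.10.9. Exact permutation tests of single members were two-sided over 252 arrangements. Promoter sequences are from RefSeq.

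The members, gene lists and settings were chosen with earlier results of these data known. Named partner genes are those of each list that passed, up to 6 by p, or the 2 with the smallest p where none did; of the tricarboxylic acid cycle and marker lists, up to 3 that passed. Other genes of these lists are said to be named after their values were seen. The markers Tnnt2, Myl3, Myl4 and Sln, which did not pass, are also outside this rule and were named with their values known. Replicate numbers 2, 3, 4 and 6 occur at both ages, but same-numbered arrays deviated together with correlations of 0.035, 0.048, 0.145 and 0.044. Among these numbers, Old replicates 4 and 6 correlated best with the Young array of their own number, and Old replicates 2 and 3 did not. The numbers were not taken as pairs, but a pairing is not excluded. Alternatives changed the normalization, probe set summary, filter, weights, variance model, block and arrays used.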

Additional observations from a re-analysis of the deposited data

Results flagged for a closer look

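Among 22 groups of 5 arrays tested with Dixon's ratio (9 genes and the 2 probe sets of Txnrd1, at both ages), 2 held an array far from the other 4, where chance flags about 1 in 20 groups. In Txnrd2, Young replicate 4 stood at 0.0096, below the other Young arrays at 0.13 to 0.18 (ratio 0.720 against a critical value of 0.71). By the probe set 1386958_at of Txnrd1, Old replicate 3 stood at 0.48, above the other Old arrays (ratio 0.841). The cause of either value was not tested.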

How the results depend on the processing

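Prdx5 and Txn2 kept their direction and their call under all 20 alternatives, with differences of -0.45 to -0.37 and -0.39 to -0.35 and adjusted p of up to 0.0221 and 0.0129. Under the replicate block the call of Txnrd2 was lost (-0.24, adjusted p = 0.120), as were those of Idh1 (0.0576), Pgd (0.123), Tmx1 (0.0827) and Pdia3 (0.176). In that fit Old replicate 5 and Young replicate 1 had no partner of their number. The block difference therefore rests on replicate numbers 2, 3, 4 and 6 alone. Prdx4 rose in 14 alternatives and Txnrd2 fell in 13; the other alternatives kept their sign. Leaving out 1 array at a time gave 0 to 2 member genes risen, with 0 to 2 of the probe sets and 0 to 2 of the other members, against 1 on all arrays. Without Old replicates 3 and 6 together 0 genes, 0 probe sets and 0 of the other members rose, since Prdx4 was lost. All genes called numbered 1686 in the main setting, 988 without Young replicate 3 and 1047 without Young replicate 2, 1003 without Old replicate 5, 1089 without Old replicate 6 and 1012 without both Old replicates 3 and 6, and 1069 under the block. The call of Gpx1 (0.0985), Hmox1 (0.0907), Pgd (0.156), Tmx1 (0.0643) and Pdia3 (0.0731) was also lost without both Old replicates 3 and 6, and Apex1 passed with array weights (0.0357). The sign of Prdx3 turned, without passing, with quantile normalization (0.0131), the replicate block (0.0021), array weights (0.0362, or 0.0274 by probe set) and without both Old replicates 3 and 6 (0.1428), and 1 array left out gave -0.0642 to 0.0649. Turned values without 1 array were 0.0649, 0.0286, 0.0155, 0.0023 and 0.0295, without Old replicate 3 or 6 or Young replicate 1, 3 or 4. By the unadjusted exact permutation test Prdx2 reached p = 0.0238, Prdx4 0.0159 and Txn1 0.0635. The causes were not tested. Without 1 array, 2 or 3 member genes, and 2 or 3 probe sets, fell. The median of the mitochondrial minus that of the other members, -0.46, lay between -0.49 and -0.38 in the alternatives run for it.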

Other observations

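The probe set 1367613_at, which the annotation gives to both Prdx1 and Prdx1l1 and which was therefore assigned to neither, read 0.33, 0.24, -0.040, 0.028 and 0.099 in Old replicates 2 to 6, against 0.13, -0.16, -0.028, -0.15 and -0.11 in Young replicates 1, 2, 3, 4 and 6. The ages overlapped, and the difference was 0.19 ± 0.08 (SE, limma adjusted p = 0.170 over all probe sets).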
